A study of Mus musculus with 9 samples.

Results

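Cytochrome P450 genes of families 1 to 3 encode the haem enzymes of the endoplasmic reticulum that oxidise drugs, pollutants, steroids, bile acids and fatty acids, and the liver holds most of them. They were measured here in livers of STAM mice, in which a newborn streptozotocin injection followed by a high-fat diet gives diabetes, steatohepatitis and later liver tumours. The members were all array probes that are not controls and whose RefSeq accession belongs to a mouse symbol of the Cyp1, Cyp2 or Cyp3 families, with pseudogenes left out. The rule gave 71 probes for 55 genes, of 55681 probes and 20972 named genes on the array. By signal, 62 probes for 49 genes could be tested. The genes Cyp2b19, Cyp2b23, Cyp2c65, Cyp2c66, Cyp2j11 and Cyp2w1 had a probe that was not well above background on all 3 arrays of any group and were not tested. A further 6 of the 61 family symbols in the gene table, Cyp2a5, Cyp2c40, Cyp2c69, Cyp2j7, Cyp2j12 and Cyp3a41a, had no probe by this match and were not analysed here.

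Total liver RNA of 9 male mice was hybridised to 9 Agilent 1-colour arrays, with 3 arrays in each of 3 groups. STAM-NON were STAM mice given no treatment, STAM-INS were STAM mice given subcutaneous insulin glargine, and Normal were lean mice given neither streptozotocin nor the high-fat diet and fed ordinary chow. Per the methods the mice were C57BL/6J and the arrays compared livers at 20 weeks of age, when this model carries liver tumours. No vehicle for STAM-NON is given in the sources used here. STAM-NON and Normal therefore differ in streptozotocin, diet and disease together, and whether the pieces of STAM liver held tumour is not given in the sources used here. Each array is 1 mouse, so the spread between arrays holds both animal and technical variation.

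The 6 STAM arrays were on 1 slide and the 3 Normal arrays on another, which was scanned separately. Slide and group cannot be told apart in any difference from Normal, whereas STAM-INS against STAM-NON lies within 1 slide. The share of spots well above background was 59.3%, 47.8% and 63.1% on the STAM-NON arrays and 65.0%, 47.8% and 49.8% on the STAM-INS arrays. On the Normal arrays it was 46.2%, 49.2% and 51.1%, and no spot was saturated on any array. Of 6 hepatocyte markers fixed for the check (Alb, Ttr, Apoa1, Tat, Serpina1c and Hnf4a), none passed the test in any comparison, with median differences of -0.29 in STAM-NON and -0.16 in STAM-INS against Normal. Their mean log2 level was 8.27 to 8.67 on the STAM-NON arrays, 8.66 to 8.72 on the STAM-INS arrays and 8.77 to 8.82 on the Normal arrays. Of 5 tested macrophage markers, Ptprc and Clec4f rose in both STAM groups against Normal, by 1.09 and 0.97 in STAM-NON and by 1.15 and 0.97 in STAM-INS, and the mean level of the list was 2.66 to 3.35 in STAM-NON, 2.76 to 3.44 in STAM-INS and 2.09 to 2.47 in Normal. Of 4 tested cholangiocyte markers, Krt7 and Sox9 rose in STAM-NON, by 1.55 and 0.96, and Sox9 rose in STAM-INS, by 1.57. Krt7 was well above background on 1 of 3 Normal arrays and entered the test through the STAM groups. Its call thus rests on a filter that the high groups alone passed. The part of these cell mixtures in the P450 differences was not tested, and in whole liver fewer cells of a type and less RNA per cell cannot be told apart.

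A cytochrome P450 receives electrons from NADPH through the reductase Por, and for some reactions through cytochrome b5. Transcription of the drug-metabolising forms is driven by ligand receptors: the aryl hydrocarbon receptor (Ahr) for Cyp1, and the constitutive androstane receptor (CAR, gene Nr1i3) and pregnane X receptor (PXR, gene Nr1i2) for Cyp2b, Cyp2c and Cyp3a. Several rodent members are also sex-biased through the pattern of growth hormone release, and many are concentrated in hepatocytes around the central vein. Levels below are log2 signals relative to the 75th percentile of the array, so 0 is that percentile, and differences are differences of these log2 levels, 1 being a 2-fold change. Levels are compared between groups for a probe and never between probes. Unless stated, a gene is given by its tested probe with the highest mean signal, errors of levels are SD with n = 3, and errors of differences are standard errors of the fit.

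P450 transcripts of families 1 to 3 were broadly lower in untreated STAM liver. In STAM-NON against Normal, 30 of the 49 tested genes (61.2%) fell and none rose at a limma adjusted p under 0.05, while 8.93% of all 13389 tested genes were called lower and 7.87% higher. By probe, 39 of 62 fell and none rose, beside 9.76% and 6.30% of all 26289 tested probes. The median difference of the members was -1.04, against -0.11 for all tested genes. Called members were 1.65 to 7.84-fold lower. The 3 STAM-NON arrays lay wholly below the 3 Normal arrays for 35 members and wholly above for 3, where 26.0% and 14.9% of all tested genes did so. The count of 30 genes fell to 16, 15 and 12 without Normal replicate 1, 2 and 3 in turn, to 3 with dim probes kept in the test and to 0 with the row of the array on its slide as a block. Row 1 held the STAM-NON arrays and row 2 those of Normal, and only STAM-INS had arrays in both, so row and group can hardly be told apart in this comparison. Of the 30 calls, 12 held with each of the 9 arrays left out in turn. It lay between 22 and 33 under the other scalings, filters and fits with limma. By the methods' t-test, which the study states for comparisons of 2 groups in general and not for the arrays, 32 genes had an unadjusted p under 0.05 and none passed after Benjamini-Hochberg adjustment. Of the remaining P450 families, 8 of 26 tested genes fell and 1 rose.

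**Figure D1:**
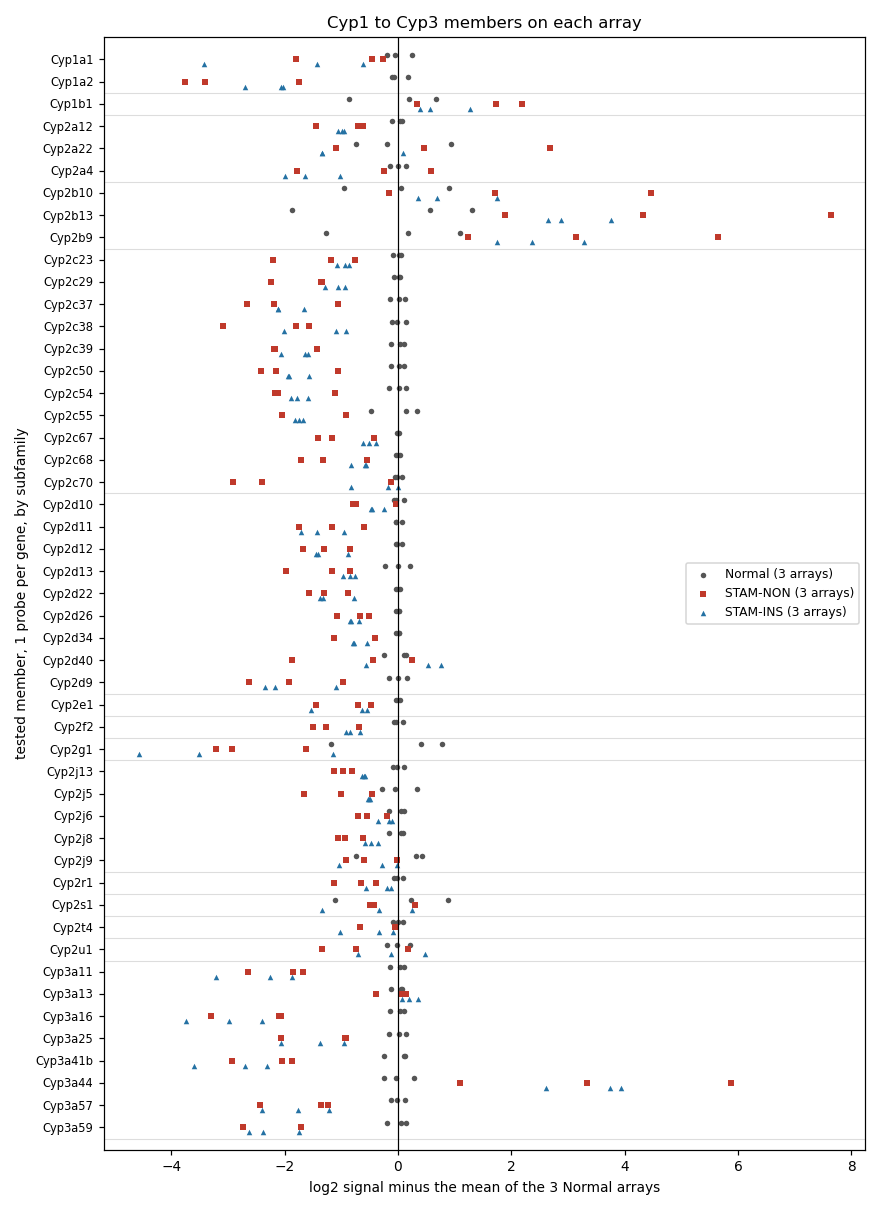
Log2 signal of the 49 tested members (rows, grouped by subfamily) on each of the 9 arrays, minus the mean of the 3 Normal arrays of that gene. Grey circles are Normal, red squares STAM-NON and blue triangles STAM-INS; most members lie left of 0 in both STAM groups, while Cyp2b9, Cyp2b13 and Cyp3a44 lie right of it.

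Insulin-treated livers showed the same side for most members. In STAM-INS against Normal, 21 of 49 genes fell (42.9%) and none rose, beside 7.48% and 6.15% of all tested genes, with a median of -0.87 against -0.07 for all tested genes. The called members were 1.52 to 8.23-fold lower. The 3 STAM-INS arrays lay wholly below the Normal arrays for 34 members and wholly above for 4, beside 27.3% and 17.6% of all tested genes. Both comparisons share the Normal arrays, so they are not independent of each other. The count of 21 was 10, 12 and 9 without Normal replicate 1, 2 and 3, and 6 without STAM-INS replicate 2. Of the 21 calls, 6 held with each of the 9 arrays left out in turn, those of Cyp2c39, Cyp2c54, Cyp3a11, Cyp3a16, Cyp3a41b and Cyp3a59.

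Between STAM-INS and STAM-NON, no member passed the test, where 11 of 13389 genes (0.0822%) did. The groups did not overlap for 3 members, all higher in STAM-INS, beside 7.77% of all tested genes in that direction and 4.88% in the other. Of the 49 members, 4 had an unadjusted limma p under 0.05 (Cyp2j13, Cyp2j8, Cyp2c70 and Cyp2c29), all higher in STAM-INS, beside 9.32% of all tested genes. The methods' t-test gave 1 member at an unadjusted p under 0.05 and none after Benjamini-Hochberg adjustment. The median difference of members was 0.03, the same as for all tested genes at 0.03. The intervals were wide for many members: that of Cyp1a2 ran from -0.35 to 1.77 and that of Cyp3a11 from -1.21 to 0.44. A change of 2-fold with insulin was therefore within the 95% interval for both.

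**Figure D2:**
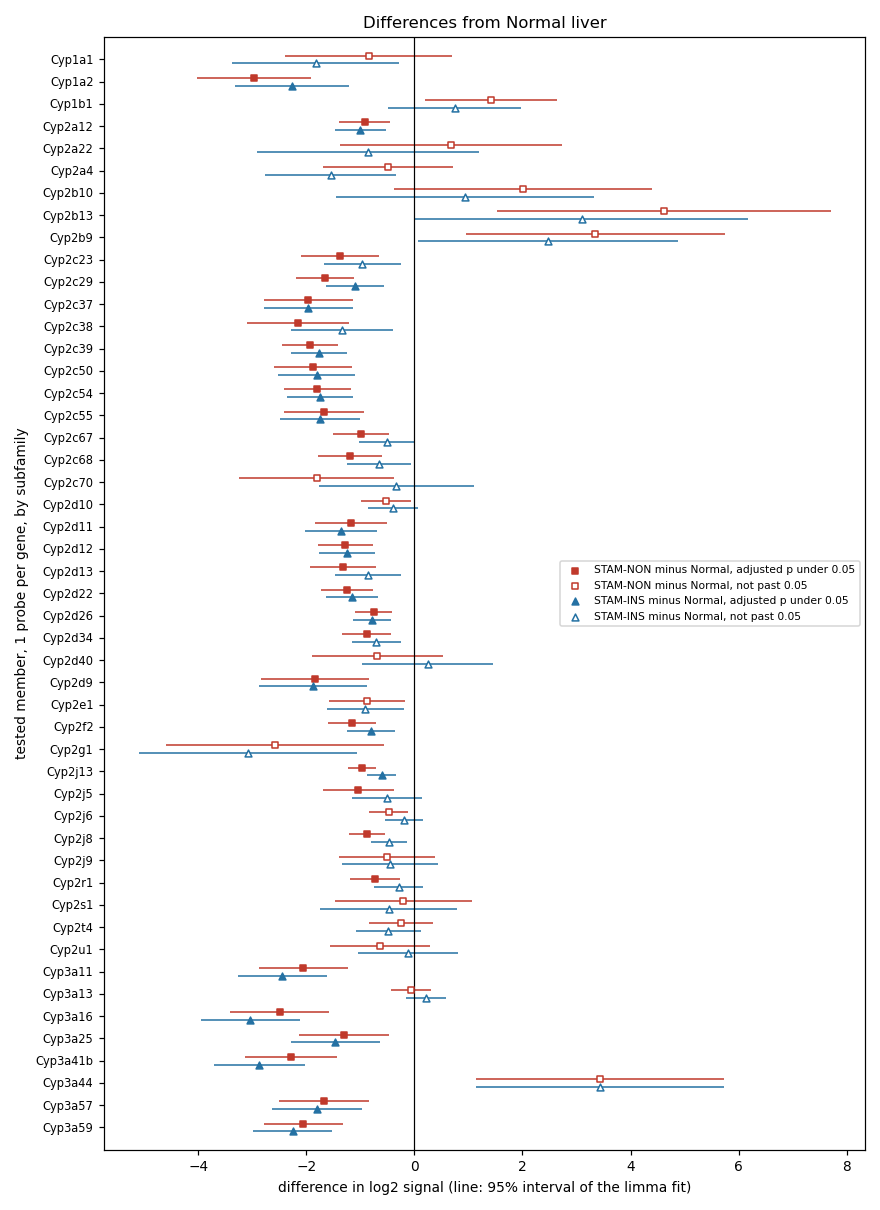
Difference in log2 signal from Normal for the 49 tested members, with red squares for STAM-NON and blue triangles for STAM-INS, lines for the 95% interval of the limma fit and filled symbols for an adjusted p under 0.05. Filled symbols lie left of 0 in every case, 30 in red and 21 in blue.

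Cyp1 genes are the classical targets of the aryl hydrocarbon receptor. Cyp1a2, which is constitutive in liver and oxidises arylamines and caffeine, had the largest called fall of all members in STAM-NON against Normal. Its log2 level was 3.91, 4.19 and 3.93 on the Normal arrays, 0.60, 2.26 and 0.26 on the STAM-NON arrays and 1.95, 1.32 and 1.97 on the STAM-INS arrays. All 6 STAM arrays lay below all Normal arrays, and the groups of STAM arrays overlapped. The fall was -2.97 ± 0.46 in STAM-NON, 7.84-fold (limma adjusted p = 0.0108), and -2.26 ± 0.46 in STAM-INS, 4.80-fold (0.0193). The call in STAM-NON held with each of the 9 arrays left out. That in STAM-INS was lost without STAM-INS replicate 2 (-2.05) and without Normal replicate 1 (-2.31), 2 (-2.17) or 3 (-2.30).

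Cyp1a1, the highly inducible form, read -2.70, -2.55 and -2.26 in Normal, -2.78, -2.97 and -4.31 in STAM-NON and -3.94, -5.94 and -3.12 in STAM-INS, where 2 of 3 arrays were well above background. Its differences from Normal, -0.84 in STAM-NON and -1.83 in STAM-INS, did not pass (0.392 and 0.104). Cyp1b1, an oestrogen hydroxylase found mostly outside hepatocytes, had a difference of 1.42 ± 0.54 in STAM-NON (0.0995). Without STAM-NON replicate 2 that difference was 1.96 and passed. Cyp1b1 was well above background on 2 of 3 Normal arrays and entered the test through the STAM groups. Its p-values thus rest on a filter that the higher groups alone passed. Of 6 tested targets of the same receptor outside the P450 genes, Ugt1a6b fell by 0.68 and Aldh3a1 fell by 0.44 in STAM-NON, while Nqo1 (0.87), Tiparp (0.36), Nfe2l2 (0.35) and Ugt1a6a (0.03) did not pass. Both also fell in STAM-INS, by 0.62 and 0.63. Ahr itself differed by 0.15 in STAM-NON (0.456).

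The Cyp2a genes did not move together. Cyp2a12, which hydroxylates steroids and in mice rehydroxylates secondary bile acids, was 7.73, 7.91 and 7.87 in Normal, 7.23, 7.14 and 6.39 in STAM-NON and 6.85, 6.89 and 6.78 in STAM-INS. It fell by 0.916 in STAM-NON (limma adjusted p = 0.0264) and by 0.997 in STAM-INS (0.0202). Cyp2a4, a female-biased steroid 15-alpha-hydroxylase, was 9.01, 8.73 and 8.87 in Normal, 9.45, 8.62 and 7.08 in STAM-NON and 7.85, 6.89 and 7.22 in STAM-INS. The STAM-NON arrays thus lay on both sides of Normal, while all STAM-INS arrays lay below it, and neither difference passed (-0.49 and -1.55). Cyp2a22 had differences of 0.68 and -0.87 that did not pass. Cyp2a5 had no probe by this match, and whether the probes of Cyp2a4 read Cyp2a5 transcripts was not tested.

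The tested Cyp2b genes, the CAR-inducible forms, and Cyp3a44 were the members with the widest spread in STAM-NON. Cyp2b10, the standard marker gene of CAR activity in mouse liver, read 1.67, 3.53 and 2.67 in Normal, 7.09, 4.34 and 2.46 in STAM-NON and 2.98, 4.37 and 3.32 in STAM-INS. Cyp2b9 read -3.67, -1.30 and -2.21, then 3.26, 0.76 and -1.15, then -0.64, 0.90 and -0.02 in the same order. Cyp2b13 read -5.91, -2.73 and -3.46, then 3.60, 0.29 and -2.14, then -1.38, -0.28 and -1.16. In all 3 genes STAM-NON replicate 1 was the highest array of the series and STAM-NON replicate 3 the lowest of its group. Every STAM array exceeded every Normal array for Cyp2b9 and Cyp2b13, and the groups overlapped for Cyp2b10. For Cyp2b9 and Cyp2b13, 1 of the 3 Normal arrays was not well above background. The differences in STAM-NON were 2.01 ± 1.04 for Cyp2b10, 3.35 ± 1.05 for Cyp2b9 and 4.62 ± 1.35 for Cyp2b13, with limma adjusted p of 0.200, 0.0613 and 0.0510. Without STAM-NON replicate 3, Cyp2b9 (0.0379) and Cyp2b13 (0.0332) passed. Both genes entered the test through the STAM groups, where they read high. Their p-values, these included, thus rest on a filter that the high groups alone passed. In STAM-INS the differences were 0.94, 2.47 and 3.09 (0.560, 0.144 and 0.153).

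Cyp2b9 and Cyp2b13 are neighbours on chromosome 7 whose promoters are shown for their likeness. Their readings ran in parallel, but so did those of Cyp2b10, whose arrays stood in the same order within each group. With each gene set to its Normal mean, Cyp2b9 stayed within 1.98 log2 units of Cyp2b13 on all 9 arrays and within 1.68 of Cyp2b10. Over the 250 bases before the start the sequences matched at 248, 99.2%, and capitals mark the bases that differ, whereas each matched Cyp2b10 over 70% of an alignment with gaps. All promoters here are from RefSeq on the build GRCm38.p6 and are printed from 5′ to 3′ on the gene's strand. The set of promoters used here held 47 of the 55 members. The probe sequences are not in the files used here, so reading of 1 transcript by the probe of the other was not tested.
Cyp2b9 (chr7:26173159-26173408, plus strand): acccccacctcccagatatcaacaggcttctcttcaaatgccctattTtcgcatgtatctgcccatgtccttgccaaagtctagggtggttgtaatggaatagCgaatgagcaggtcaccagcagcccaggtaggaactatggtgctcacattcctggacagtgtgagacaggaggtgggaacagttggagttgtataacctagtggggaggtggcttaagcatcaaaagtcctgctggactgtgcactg
Cyp2b13 (chr7:26061245-26061494, plus strand): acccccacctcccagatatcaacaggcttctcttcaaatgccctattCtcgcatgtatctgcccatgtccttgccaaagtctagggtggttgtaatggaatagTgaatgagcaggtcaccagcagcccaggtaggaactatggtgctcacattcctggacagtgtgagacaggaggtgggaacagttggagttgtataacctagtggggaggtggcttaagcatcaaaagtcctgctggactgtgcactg

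The Cyp2c genes, which include the epoxygenases of arachidonic acid, gave the most uniform fall. Of 11 tested genes, 10 fell in STAM-NON and all 11 had every STAM-NON array below every Normal array, and 6 fell in STAM-INS. The median difference was -1.79 in STAM-NON and -1.34 in STAM-INS. Cyp2c29, a CAR-responsive epoxygenase, was 7.58, 7.66 and 7.67 in Normal, 5.39, 6.27 and 6.30 in STAM-NON and 6.35, 6.70 and 6.57 in STAM-INS. The 3 groups did not overlap, with STAM-INS between the others. Its fall was -1.65 ± 0.24 in STAM-NON (limma adjusted p = 0.00862) and -1.10 ± 0.24 in STAM-INS (0.0224). STAM-INS exceeded STAM-NON by 0.55, with a 95% interval from 0.01 to 1.09 (unadjusted p = 0.0454, adjusted 0.565). Cyp2c39, which also hydroxylates retinoic acid, fell by 1.93 ± 0.23 in STAM-NON (0.00486) and by 1.77 in STAM-INS (0.00395). It read 5.66, 5.88 and 5.81 in Normal, 3.59, 4.36 and 3.62 in STAM-NON and 3.72, 4.14 and 4.19 in STAM-INS.

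Cyp2c37, Cyp2c50 and Cyp2c54, close relatives with a pericentral pattern, fell by 1.97, 1.88 and 1.79 in STAM-NON and by 1.96, 1.81 and 1.75 in STAM-INS. The levels of Cyp2c37 were 6.98, 7.24 and 7.13 in Normal, 4.93, 6.07 and 4.46 in STAM-NON and 5.003, 5.005 and 5.457 in STAM-INS. Its call in STAM-NON was lost without Normal replicate 2 (-1.90) or 3 (-1.96). Cyp2c55, an inducible form, was 0.17, -0.44 and 0.38 in Normal, -2.01, -0.88 and -2.01 in STAM-NON and -1.70, -1.65 and -1.78 in STAM-INS. It fell by 1.67 and 1.75 (0.0174 and 0.0140). The call in STAM-NON was lost without STAM-NON replicate 1 (-1.48) or 3 (-1.48) and without Normal replicate 1 (-1.60) or 3 (-1.50). Cyp2c38 was 6.80, 6.72 and 6.96 in Normal, 3.73, 5.26 and 5.03 in STAM-NON and 4.81, 5.92 and 5.74 in STAM-INS, a fall of -2.15 ± 0.42 in STAM-NON (0.0174). That call was lost without Normal replicate 1 (-2.17), 2 (-2.21) or 3 (-2.09). Its other probe disagreed, with levels of -1.39, -2.03 and -1.41 in Normal, -1.46, -1.52 and -1.17 in STAM-NON and a difference of 0.23 (0.529).

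Cyp2c70 makes the muricholic acids, the hydrophilic bile acids of mice and rats. It was 7.25, 7.34 and 7.21 in Normal, 4.35, 4.87 and 7.15 in STAM-NON and 7.10, 7.27 and 6.43 in STAM-INS. Replicates 1 and 2 of STAM-NON were the lowest arrays of the series, and replicate 3 lay just under Normal. The difference was -1.81 ± 0.62 in STAM-NON (limma adjusted p = 0.0795) and -0.33 in STAM-INS (0.739). STAM-INS exceeded STAM-NON by 1.47, with a 95% interval from 0.05 to 2.90 (unadjusted p = 0.0444, adjusted 0.563). Without STAM-NON replicate 3 it was 2.32 and passed (0.0197), the only member called in this comparison with an array left out. Cyp2c67 and Cyp2c68, genes of the same cluster, also read lowest on STAM-NON replicates 1 and 2 and fell by 0.996 and 1.192 in STAM-NON. In STAM-INS their differences from Normal were -0.51 and -0.66 and did not pass, and neither did those from STAM-NON, 0.49 and 0.53.

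Cyp2d genes fell together and by less. Of 9 tested genes, 7 fell in STAM-NON and 5 in STAM-INS, with median differences of -1.17 and -0.86. Cyp2d9, the male-specific testosterone 16-alpha-hydroxylase, was 7.45, 7.28 and 7.61 in Normal, 5.53, 6.48 and 4.83 in STAM-NON and 5.28, 5.10 and 6.34 in STAM-INS. All 6 STAM arrays lay below Normal. It fell by 1.84 ± 0.44 (0.0299) and by 1.87 ± 0.44 (0.0293). The call in STAM-NON was lost without STAM-NON replicate 1 (-1.79) or 3 (-1.44) and without Normal replicate 1 (-1.83), 2 (-1.92) or 3 (-1.76). Cyp2d11 and Cyp2d12, the other male-biased Cyp2d forms of the list, fell by 1.17 and 1.28 in STAM-NON and by 1.36 and 1.25 in STAM-INS. Cyp2d26 fell by 0.75 in STAM-NON, with 9.93, 9.97 and 9.97 in Normal and 9.30, 9.45 and 8.88 in STAM-NON. Cyp2d10 (-0.52) and Cyp2d40 (-0.69) did not pass.

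Cyp2e1, the ethanol-oxidising form of pericentral hepatocytes, was 9.99, 10.02 and 10.06 in Normal, 9.31, 9.55 and 8.57 in STAM-NON and 9.38, 8.49 and 9.47 in STAM-INS. All STAM arrays lay below Normal, but the brightest probe did not pass (-0.88 ± 0.31, limma adjusted p = 0.0840, and -0.91, 0.0834). Its other probe fell by 1.32 in STAM-NON (0.0446) and by 1.41 in STAM-INS (0.0397). Cyp2f2, which oxidises naphthalene and is a periportal form, was 9.21, 9.18 and 9.34 in Normal, 7.97, 8.55 and 7.74 in STAM-NON and 8.41, 8.33 and 8.58 in STAM-INS. It fell by 1.16 ± 0.20 (0.0133) and by 0.80 ± 0.20 (0.0336). Without Normal replicate 3 its difference in STAM-NON was -1.11 and just missed the threshold. Members of both liver zones were thus lower: of 7 tested pericentral members, 6 fell in each STAM group against Normal, as did the periportal Cyp2f2. Of the zone markers outside the P450 genes, 1 of 11 pericentral genes fell in STAM-NON (Lect2, by 0.97), beside 8.93% of all tested genes. The periportal list had 3 of 11 (Hal by 1.16, Cps1 by 0.67 and Arg1 by 0.42). Both lists had a median difference of -0.42 there, with 11 pericentral and 9 periportal differences below 0.

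Cyp2j genes form epoxides of arachidonic acid. Of 5 tested genes, 3 fell in STAM-NON and 1 in STAM-INS, and all 5 differences between STAM-INS and STAM-NON were above 0, with a median of 0.37. Cyp2j13 had the smallest unadjusted p of all members in that comparison. It was 2.07, 1.89 and 1.96 in Normal, 0.999, 1.161 and 0.842 in STAM-NON and 1.33, 1.40 and 1.37 in STAM-INS. The 3 groups did not overlap. It fell by 0.97 ± 0.12 in STAM-NON (limma adjusted p = 0.00514) and by 0.60 in STAM-INS (0.0157), and STAM-INS exceeded STAM-NON by 0.37, with an interval from 0.10 to 0.63 (unadjusted p = 0.0121, adjusted 0.476). Cyp2j8 read in the same order, with 4.32, 4.52 and 4.57 in Normal, 3.41, 3.86 and 3.54 in STAM-NON and 4.002, 3.888 and 4.112 in STAM-INS, and STAM-INS exceeded STAM-NON by 0.40 (unadjusted p = 0.0241, adjusted 0.508). Cyp2j5, the epoxygenase best known from kidney, fell by 1.04 ± 0.29 in STAM-NON (0.0438). Its call was lost with any array other than STAM-NON replicate 2 left out, at -0.73 to -1.18.

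Cyp2r1, the vitamin D 25-hydroxylase, was 3.82, 3.76 and 3.92 in Normal, 2.70, 3.44 and 3.18 in STAM-NON and 3.26, 3.71 and 3.64 in STAM-INS. It fell by 0.72 ± 0.20 in STAM-NON (limma adjusted p = 0.0454), and its difference in STAM-INS was -0.29 (0.341). The call was lost with any array other than STAM-NON replicate 2 and STAM-INS replicate 1 left out, at -0.52 to -0.76. Its second probe gave -0.72 in STAM-NON as well and did not pass (0.111). Cyp2u1, a fatty acid hydroxylase, had levels from -3.42 to -1.60, and its difference of -0.64 did not pass. Cyp2g1, a form best known from olfactory epithelium, had differences of -2.59 and -3.08 that did not pass (0.0771 and 0.0524), and its signal cleared background on a single STAM-INS array. Cyp2s1 and Cyp2t4 had differences of -0.20 and -0.25 in STAM-NON.

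Cyp3a genes, the PXR-inducible steroid and drug hydroxylases, held 4 of the 8 largest called falls in STAM-NON and 3 of the 4 largest in STAM-INS. Of 8 tested genes, 6 fell in STAM-NON and the same number in STAM-INS, with medians of -1.86 and -2.02. Cyp3a11, the main Cyp3a form of adult male mouse liver, was 9.50, 9.25 and 9.43 in Normal, 7.54, 7.72 and 6.74 in STAM-NON and 6.18, 7.14 and 7.53 in STAM-INS. It fell by 2.06 ± 0.36 in STAM-NON, 4.16-fold (limma adjusted p = 0.0142), and by 2.44 ± 0.36 in STAM-INS (0.00633). Cyp3a16, a form of fetal and female liver, was 6.88, 6.63 and 6.81 in Normal, 4.71, 4.68 and 3.47 in STAM-NON and 3.04, 3.79 and 4.37 in STAM-INS. It fell by 2.49 ± 0.40 in STAM-NON (0.0118) and by 3.04 ± 0.40 in STAM-INS (0.00435), the latter 8.23-fold. Cyp3a41b, another female form, fell by 2.28 (0.0120) and by 2.87 (0.00400), and Cyp3a59 fell by 2.05 (0.0108) and by 2.25 (0.00549). In all 4 genes every STAM array lay below every Normal array. The calls of all 4 held in both comparisons with each of the 9 arrays left out.

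Of the other Cyp3a genes, Cyp3a57 and Cyp3a25 also fell, while Cyp3a13 and Cyp3a44 did not. Cyp3a57 fell by 1.67 in STAM-NON (limma adjusted p = 0.0241) and by 1.79 in STAM-INS (0.0189). Both calls of Cyp3a57 were lost with each Normal array left out in turn, and the second also without STAM-INS replicate 2. Cyp3a25 was 6.73, 6.90 and 7.03 in Normal, 5.97, 5.96 and 4.82 in STAM-NON and 5.52, 4.83 and 5.94 in STAM-INS, a fall of 1.30 (0.0447) and of 1.46 (0.0341). The first call was lost with any array other than STAM-NON replicate 2 and STAM-INS replicate 2 left out, at -0.92 to -1.50. Cyp3a13, the Cyp3a form of small intestine and liver, gave -0.06 in STAM-NON, with an interval from -0.43 to 0.30, and 0.21 in STAM-INS, and neither passed. Its sign in STAM-NON turned to above 0 in 4 other scalings or fits and without STAM-NON replicate 1. Cyp3a44, a female-specific form, did not clear background in Normal (-5.98, -6.20 and -5.66) and read -0.06, -4.85 and -2.60 in STAM-NON and -2.01, -2.21 and -3.33 in STAM-INS. All STAM arrays lay above Normal, with 2 of 3 STAM-NON and 3 of 3 STAM-INS arrays well above background. Set against the lowest detectable signal the excess over Normal was at least 2.61-fold in STAM-NON and at least 2.59-fold in STAM-INS (limma adjusted p = 0.0507 and 0.0556). The gene entered the test through its STAM-INS arrays, so these p-values rest on a filter that the high group alone passed.

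The promoters of Cyp3a11, Cyp3a16, Cyp3a41b and Cyp3a44 are shown because all STAM arrays read above Normal for the last of these and below Normal for its close relatives. Whether the probes of Cyp3a16 and Cyp3a41b read Cyp3a11 was not tested. Over the 250 bases before the start, Cyp3a41b and Cyp3a44 matched at 237 positions, 94.8%, and Cyp3a16 matched Cyp3a44 over 92.9% of an alignment with gaps. Capitals mark CAAAGTCCA, an element bound by the liver factor HNF4A, TGTTTAC, a forkhead element, and TATAAA, each searched on both strands, and no marked stretch overlaps another.
Cyp3a11 (chr5:145879855-145880104, minus strand): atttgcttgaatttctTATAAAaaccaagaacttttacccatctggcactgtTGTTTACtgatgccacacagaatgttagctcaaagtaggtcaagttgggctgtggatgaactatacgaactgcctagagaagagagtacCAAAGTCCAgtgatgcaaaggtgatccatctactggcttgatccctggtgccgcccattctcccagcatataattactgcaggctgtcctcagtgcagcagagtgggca
Cyp3a16 (chr5:145469724-145469973, minus strand): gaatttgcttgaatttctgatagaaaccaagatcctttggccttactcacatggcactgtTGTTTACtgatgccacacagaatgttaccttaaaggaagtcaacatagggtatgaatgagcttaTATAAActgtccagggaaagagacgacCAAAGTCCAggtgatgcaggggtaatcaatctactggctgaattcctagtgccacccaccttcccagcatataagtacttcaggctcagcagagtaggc
Cyp3a41b (chr5:145584731-145584980, minus strand): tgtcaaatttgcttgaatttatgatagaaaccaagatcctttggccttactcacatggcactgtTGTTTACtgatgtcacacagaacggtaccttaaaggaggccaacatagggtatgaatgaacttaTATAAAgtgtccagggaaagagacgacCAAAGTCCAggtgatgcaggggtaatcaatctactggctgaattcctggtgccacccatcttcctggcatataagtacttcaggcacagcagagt
Cyp3a44 (chr5:145805875-145806124, minus strand): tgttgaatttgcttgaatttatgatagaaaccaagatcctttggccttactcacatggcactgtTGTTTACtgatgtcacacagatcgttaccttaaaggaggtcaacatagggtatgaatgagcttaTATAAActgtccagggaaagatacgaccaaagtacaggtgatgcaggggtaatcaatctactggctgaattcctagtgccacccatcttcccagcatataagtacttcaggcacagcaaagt

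The letters CAAAGTCCA stood in the windows of Cyp3a11, Cyp3a16 and Cyp3a41b, beginning 109, 99 and 95 bases before the start, and not in that of Cyp3a44. Aligned with Cyp3a41b and Cyp3a16, the Cyp3a44 window differed within these 9 letters by C7A, counted from 1 at the first letter, with the base of Cyp3a44 last. It was not the only difference, as Cyp3a41b and Cyp3a44 differed at 13 positions. The receptor half-site AGGTCA, searched too and not marked above, stood in Cyp3a44 and Cyp3a11 and not in Cyp3a16 or Cyp3a41b. Whether any of these differences bears on the readings was not tested. The letters CAAAGTCCA were found in 7 of 47 member promoters and in 0.384% of all 32851 promoters. Of the 24 member promoters whose gene fell in STAM-NON, 5 held them. TGTTTAC was found in 7 member promoters, Cyp3a44 included, and in 3.17% of all promoters, and TATAAA in 23 and in 12.4%. These are matches of letters, and binding was not measured.

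**Figure D3:**
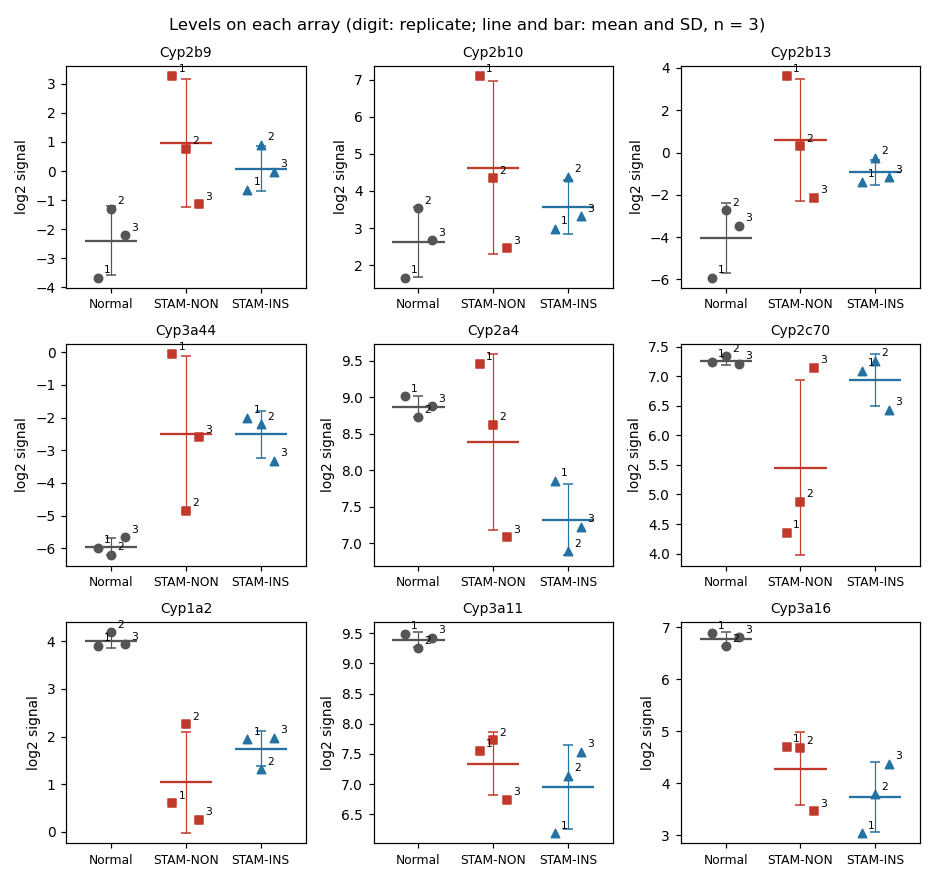
Log2 signal relative to the array's 75th percentile for 9 members in the 3 groups, 3 arrays each, with the replicate number beside each point and the mean and SD drawn. STAM-NON replicate 1 is the highest STAM-NON array for Cyp2b9, Cyp2b10, Cyp2b13, Cyp3a44 and Cyp2a4 and the lowest for Cyp2c70, and Cyp1a2, Cyp3a11 and Cyp3a16 show no overlap of STAM with Normal.

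By its probes, the list of female-biased members therefore held both directions. Of 8 tested, Cyp3a16 and Cyp3a41b fell in STAM-NON, Cyp2b9, Cyp2b10, Cyp2b13 and Cyp3a44 had differences above 0 that did not pass, and Cyp2a4 and Cyp2g1 had differences below 0 that did not pass. With each gene set to its Normal mean, Cyp3a41b stayed within 0.45 log2 units of Cyp3a11 on all 9 arrays and Cyp3a16 within 0.73. Whether the probes of these 2 female forms read Cyp3a11 was not tested. Of 4 male-biased members, Cyp2d9, Cyp2d11 and Cyp2d12 fell in both STAM groups and Cyp2u1 did not pass. Among genes of the growth hormone axis, 2 of 7 tested fell in STAM-NON, the receptor Ghr by 1.30 (limma adjusted p = 0.0163) and Igf1, its main effector in liver, by 0.64 (0.0165). Ghr was 5.80, 5.93 and 6.05 in Normal, 4.49, 5.20 and 4.20 in STAM-NON and 5.22, 4.97 and 5.40 in STAM-INS, where its difference of -0.73 did not pass. The transcription factors Stat5b (-0.37) and Bcl6 (-0.42) did not pass in STAM-NON. Of the members inducible through CAR or PXR, 7 of 11 fell in each STAM group, and the 3 Cyp2b genes and Cyp3a13 did not pass. That count holds Cyp2c37, Cyp2c50 and Cyp2c54, whose readings ran in parallel and cannot be counted as separate events. Of 9 tested epoxygenases of arachidonic acid, 7 fell in STAM-NON and 5 in STAM-INS. Beside the counts of this paragraph, 8.93% of all tested genes were called lower in STAM-NON and 7.48% in STAM-INS.

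Members varied more between arrays of a STAM group than other probes did. The median SD of a tested member probe was 0.14 in Normal, 0.58 in STAM-NON and 0.35 in STAM-INS, beside 0.16, 0.23 and 0.18 over all tested probes. STAM-NON replicate 3 was the lowest array of its group for 29 of the 49 genes and STAM-NON replicate 2 the highest for 28. The median deviation of a member from its Normal mean was -1.24, -0.70 and -1.34 on the 3 STAM-NON arrays and -0.84, -0.95 and -0.82 on the 3 STAM-INS arrays. Over all tested genes the same medians lay between -0.15 and -0.01. Each of the 6 STAM arrays was thus low, and the STAM-INS values lay within the range of the STAM-NON values. STAM-NON replicates 1 and 3, the lower by these medians, had 59.3% and 63.1% of spots well above background, and replicate 2 had 47.8%. In STAM-INS, replicate 1 had 65.0% and was not the lowest of its group. The part of array quality in this spread was not tested.

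**Figure D4:**
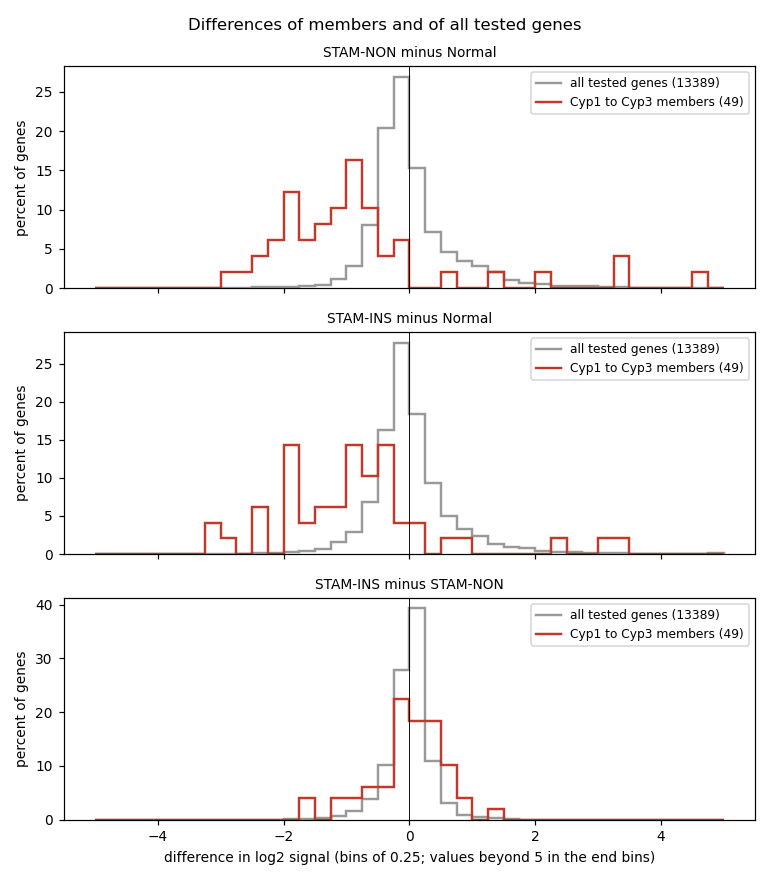
Percent of genes in bins of 0.25 of the difference in log2 signal, for the 49 members (red) and all 13389 tested genes (grey), in the 3 comparisons. Members peak left of all genes in both comparisons with Normal, with a few at the far right, and both curves centre near 0 between STAM-INS and STAM-NON.

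The electron donor of these enzymes was lower as well. Por was 7.53, 7.28 and 7.30 in Normal, 6.95, 6.82 and 6.36 in STAM-NON and 5.37, 5.20 and 5.64 in STAM-INS. The 3 groups did not overlap, and STAM-INS was the lowest. Por fell by 0.66 in STAM-NON (limma adjusted p = 0.0456) and by 1.97 in STAM-INS (0.00185), and STAM-INS differed from STAM-NON by -1.31 (0.0725). The fall in STAM-INS passed under all 22 alternatives, and that in STAM-NON failed under 17 of 22. Of 6 electron transfer partners, Pgrmc1, a haem-binding partner, also fell in STAM-NON, by 0.80, and Pgrmc1 and Cyb5a, cytochrome b5, fell in STAM-INS, by 0.73 and 0.69. Alad, an enzyme of haem synthesis, fell by 0.59 in STAM-NON and by 0.62 in STAM-INS. Alas1, which sets the rate of haem synthesis, gave -0.46 and -1.16 and did not pass.

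Of 17 tested receptors and factors that act on these genes, 3 fell in STAM-NON, beside 8.93% of all tested genes. They were Nr1i3 by 0.81 (limma adjusted p = 0.0279), its partner Rxra by 0.61 (0.0219) and Nr1h4, the bile acid receptor, by 0.46 (0.0454). Of 22 alternatives, these calls were lost under 10, 10 and 16 in that order. In STAM-INS, 4 fell, beside 7.48% of all tested genes: Nr1i3 by 1.06 (0.0119), Ppara by 0.86 (0.0229), Nr1i2 by 0.61 (0.0288) and Nr1h4 by 0.51 (0.0364). Those calls were lost under 3, 8, 12 and 13 of 22 alternatives in that order. Nr1i3 was 4.48, 4.28 and 4.42 in Normal, 3.45, 3.86 and 3.45 in STAM-NON and 3.08, 3.21 and 3.71 in STAM-INS, with no overlap with Normal. Nr1i2 was 3.86, 3.86 and 4.10 in Normal, 3.94, 3.92 and 3.57 in STAM-NON and 3.21, 3.38 and 3.42 in STAM-INS, so that the STAM-NON arrays overlapped with Normal. No member of these pathway lists passed between STAM-INS and STAM-NON.

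Members of a subfamily are so alike that a probe may read a relative. The files hold no probe sequences, so cross-hybridisation was not tested, and the values of the pairs below are given as they stand. With each gene set to its Normal mean, Cyp2d12 and Cyp2d22 stayed within 0.11 log2 units of each other on all 9 arrays, Cyp2c50 and Cyp2c54 within 0.24, Cyp2c37 and Cyp2c50 within 0.25, Cyp2j8 and Cyp2j13 within 0.25, and Cyp3a16 and Cyp3a41b within 0.37. Among wider pairs, Cyp3a11 stayed within 0.45 of Cyp3a41b and within 0.73 of Cyp3a16. Falls within such pairs cannot be counted as separate events. Of 12 members with more than 1 tested probe, 4 had probes that differed in call in STAM-NON against Normal (Cyp2c38, Cyp2e1, Cyp2j6 and Cyp2r1) and 2 had probes that differed in sign (Cyp2c38 and Cyp3a13). In STAM-INS against Normal, Cyp2d34 and Cyp2e1 differed in call and Cyp2c38 in sign. The probes of Cyp2d34 differed most in size within 1 direction, at -0.89 and -2.06 in STAM-NON. The other probes of Cyp2c37, Cyp2c54, Cyp2c67, Cyp3a11 and Cyp3a59 passed in STAM-NON in the same direction.

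**Figure D5:**
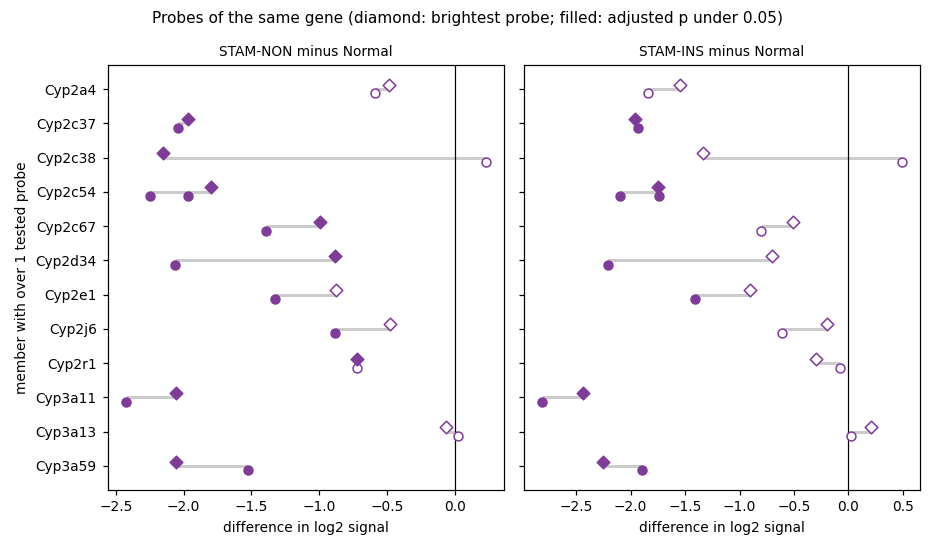
Difference in log2 signal from Normal for each tested probe of the 12 members with more than 1, STAM-NON on the left and STAM-INS on the right. Diamonds are the probe with the highest mean signal and filled symbols have an adjusted p under 0.05; the probes of Cyp2c38 lie on both sides of 0, at -2.15 and 0.23 in STAM-NON.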

How the data were processed

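Per the labels and the study's methods, total RNA of snap-frozen liver was labelled with Cy3 and hybridised to Agilent SurePrint G3 Mouse arrays, and images were read with Agilent Feature Extraction 11.5.1.1 per the submitters' processing notes. The deposited files hold the intensity of each spot per the file headers, with the processed signal already background-corrected by that software. The array design names mm9; symbols and promoters come from RefSeq tables on GRCm38.p6, matched by accession without version, and no coordinates of probes are given. The authors' methods name no array normalization and no test for the arrays; their general statistics name an unpaired two-tailed t-test, which served as an alternative.

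From the processed signal, outlier-flagged spots were left out (none of a member probe), spots of a probe were averaged, and log2 values were centred on the 75th percentile of each array. A probe was tested when 0.5 or more of its spots cleared background on all 3 arrays of at least 1 group. One limma model (lmFit and eBayes, limma 3.58.1 in R 4.3.3, 6 residual degrees of freedom) covered the 9 arrays and 3 comparisons, two-sided, with Benjamini-Hochberg adjustment over all 26289 tested probes and a threshold of 0.05. Each gene was described by its tested probe with the highest mean. A bound on a fold was taken against the lowest signal well above background on each array. The script was tested on simulated data.

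Members named by rule were the 8 largest called changes in each direction in STAM-NON (none rose), the 6 lowest unadjusted p values between STAM-INS and STAM-NON, the 4 largest called differences in STAM-INS and a fixed list (Cyp1a1, Cyp1a2, Cyp1b1, Cyp2a4, Cyp2b9, Cyp2b10, Cyp2b13, Cyp2c29, Cyp2c55, Cyp2d9, Cyp2e1, Cyp2f2, Cyp2j5, Cyp2r1, Cyp2u1, Cyp3a11, Cyp3a13, Cyp3a16, Cyp3a25, Cyp3a44, with Cyp2a5 and Cyp3a41a not on the array by this match), and of each pathway list up to 4 called genes. The other members were named to complete their subfamily, after their values were seen. The members and lists were chosen with earlier results of these data known. The alternatives were other centrings, normexp on the median spot signal (offset 50, since the files used here hold no mean signal), quantile normalization, other filters, flagged spots kept, trend and robust eBayes, slide row or replicate number as a block, the mean over probes, the methods' t-test and leaving out each array. Markers of other cell types (T and B cell, adipose, pancreas, erythroid, intestine, lung, kidney, stellate, endothelial) were checked too, and none passed in STAM-NON against Normal. Of the adipose, pancreas, intestine, lung and kidney lists only 1 gene each was tested. The mean erythroid level varied widely, at 1.44, 3.22 and 4.84 in STAM-NON, 1.94, 4.93 and 3.95 in STAM-INS and 2.63, 2.60 and 2.67 in Normal. The kidney gene Kap was well above background on the STAM-INS arrays alone. Its fitted difference from Normal there was 2.42 (limma adjusted p = 0.0119), and against the lowest detectable signal the excess was at least 1.52-fold. Kap entered the test through those arrays, so this p-value rests on a filter that the high group alone passed. The number of arrays limits the precision. Protein and probe sequences were not used here. Of the haem synthesis and breakdown list, part of the results is not reported here.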

Additional observations from a re-analysis of the deposited data

How the results depend on the processing

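The 30 called falls in STAM-NON and the 21 in STAM-INS, both against Normal, kept their sign in every alternative fit of the probe. The sign of Cyp3a13, which was not called, turned to 0.11 with the percentile over probes detected on all arrays, 0.088 with E1A spike-ins, 0.16 with quantile normalization and 0.13 with the slide row as a block, and spanned -0.16 to 0.10 with an array left out; that of Cyp2a4 spanned -1.02 to 0.16 with an array left out. With dim probes kept, 6 member probes and 3 member genes passed in STAM-NON and 10 and 6 in STAM-INS, both against Normal, and the cause was not tested. With the slide row as a block 0 probes and 0 genes passed in STAM-NON, where row and group are nearly confounded. The methods' t-test gave 0 and 0 there after Benjamini-Hochberg adjustment. Unadjusted it gave 45 probes and 35 genes in STAM-INS against Normal, and 1 and 1 in STAM-INS against STAM-NON. With an array left out, STAM-NON against Normal gave 16 to 39 probes and 12 to 32 genes, STAM-INS against Normal 10 to 35 probes and 6 to 27 genes, and STAM-INS against STAM-NON 0 to 1 of each, the call being Cyp2c70 without STAM-NON replicate 3. Same-numbered arrays did not deviate together (correlations from -0.29 to 0.15), so the numbers were not taken to pair mice. With the replicate block 22 genes passed in STAM-NON against Normal, 17 in STAM-INS against Normal and 0 between the STAM groups. The scaling moved the median of all tested probes in STAM-NON against Normal from -0.13 to -0.29 (median centring), 0.02 (E1A) and 0.04 (detected probes), and that of the member probes lay between -1.33 and -0.96. The fall of Por in STAM-NON passed under 5 of 22 alternatives. Probes near background hold little information here, which bears on Cyp1a1, Cyp1b1, Cyp2b9, Cyp2b13 and Cyp3a44.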
